A study of Mus musculus with 6 samples.

Results

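The general transcription factors, the Mediator complex and the RNA polymerases form the machinery that starts transcription. The genes described here were chosen by symbol. They are the genes of the general factors (symbols starting with Gtf), the TBP-associated factors (Taf and a number), Mediator (Med and a number) and the subunits of RNA polymerases I, II and III (Polr1, Polr2 or Polr3 and a letter). The rule found 104 genes among the 49585 rows of the table, comprising 23 Gtf, 23 Taf, 30 Med, 5 Polr1, 13 Polr2 and 10 Polr3 genes. A single pseudogene name was dropped. The RNA came from epiblast-like cells (EpiLCs) of the mouse, an in vitro counterpart of the early postimplantation epiblast, made from embryonic stem cells (ESCs) of strain C57BL/6. The 3 Cables2-deficient (KO) libraries and the 3 wild-type (WT) libraries were all collected on day 2 of induction in activin A (20 ng/mL), bFGF (12 ng/mL) and KSR (1%), from ESCs kept in LIF, CHIR99021 (3 μM) and PD0325901 (1 μM). Cables2 encodes a protein of the Cables family, which binds cyclin-dependent kinases. The labels name no allele, clone or culture for the libraries, so each p-value reflects the variation among the sequenced libraries alone, and that variation may be technical.

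RNA polymerase I transcribes the large ribosomal RNA precursor, RNA polymerase II transcribes messenger RNAs, and RNA polymerase III transcribes transfer RNAs and 5S ribosomal RNA. At Pol II promoters TFIID, made of TBP and the TAFs, binds DNA first, and TFIIA, TFIIB, TFIIF, TFIIE and TFIIH complete the initiation complex, while Mediator relays signals from enhancer-bound activators to the polymerase. TFIIIA and TFIIIC bind promoters of Pol III genes, and SL1, a complex of TBP with its own set of TAFs, recruits Pol I. Several of these complexes have alternative subunits, and some of these, such as Polr3g in ESCs or Taf7l and Taf4b in germ cells, are known for their cell type.

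Libraries held 4442618 to 5206717 counts in KO and 4234788 to 4848967 counts in WT. Values are given as CPM, counts scaled to the size of a library, always in the order of libraries 04, 05 and 06 for KO and 01, 02 and 03 for WT. The targeted gene Cables2 had 1.17, 2.09 and 0.904 CPM in KO, against 23.9, 24.8 and 28.9 CPM in WT, so the labels held in each library. Summed over the marker lists, formative EpiLC genes stood at 3582 to 3798 CPM in KO and 3230 to 3426 CPM in WT, and naive ESC genes at 189 to 198 CPM in KO and 324 to 385 CPM in WT, although Klf2 of the naive list rose 1.53-fold. Pluripotency genes shared by ESCs and EpiLCs stood at 4976 to 5037 CPM in KO and 5212 to 5266 CPM in WT. Of that sum Cdh1, on chromosome 8, held 1169 to 1199 CPM in KO and 1377 to 1392 CPM in WT. Tdgf1 of this list rose 1.28-fold, and 3 of the 8 genes listed fell. In the formative list 5 of 8 tested genes rose, Dnmt3a fell to 89.1% of WT, and Dnmt3b and Otx2 did not pass the test. Of the formative sum Dnmt3b held 1516 to 1617 CPM in KO and 1361 to 1489 CPM in WT. Dnmt3a held 1179 to 1209 CPM in KO and 1324 to 1374 CPM in WT. Pou3f1, which rose, held 430 to 493 CPM in KO and 236 to 276 CPM in WT. Neural genes reached 135 to 160.2 CPM in KO and 112 to 128 CPM in WT, and trophoblast genes 102 to 106 CPM in KO and 76.6 to 92.3 CPM in WT, with Elf5 at 0. In the sums of these 5 lists the groups did not overlap. Of the neural sum Nes alone held 98.1 to 118 CPM in KO and 71.8 to 89.7 CPM in WT. Among 5 tested neural genes 2 rose, and their median log2 fold change was -0.038. Krt18, the 1 of 4 tested trophoblast genes that rose, held 71.0 to 79.7 CPM in KO and 56.1 to 63.9 CPM in WT. Fibroblast genes reached 31.5 to 34.4 CPM in KO and 29.1 to 31.6 CPM in WT, with Lum and Postn at 0 in every library. Primitive endoderm genes reached 9.93 to 16.3 CPM in KO and 14.5 to 21.7 CPM in WT, with Afp at 0, and mesendoderm genes 10.6 to 15.4 CPM in KO and 7.15 to 15.3 CPM in WT. Mitochondrially encoded transcripts took 0.204% to 0.243% of the counts in KO and 0.141% to 0.152% in WT. The part of these differences in the results below was not tested.

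The sequences around the start sites of 5 genes are shown because these genes include the largest rise, both TFIIIC genes that rose and both polymerase subunit genes that fell. Each is the 300 bases from 250 before to 50 after the start in the gene's own direction (RefSeq, GRCm38.p6), and capitals mark matches on either strand to short motifs. The positions are chrX:134476441-134476740, minus strand for Taf7l, chr10:40257663-40257962, minus strand for Gtf3c6, chr7:125707639-125707938, minus strand for Gtf3c1, chr8:94857200-94857499, plus strand for Polr2c, and chr6:71908803-71909102, plus strand for Polr1a.
Taf7l: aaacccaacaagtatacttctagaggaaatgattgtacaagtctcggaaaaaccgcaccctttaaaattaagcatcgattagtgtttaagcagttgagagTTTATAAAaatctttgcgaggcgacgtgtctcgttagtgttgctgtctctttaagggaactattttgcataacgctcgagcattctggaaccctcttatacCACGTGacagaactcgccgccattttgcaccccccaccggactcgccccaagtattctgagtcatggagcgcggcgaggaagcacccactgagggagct
Gtf3c6: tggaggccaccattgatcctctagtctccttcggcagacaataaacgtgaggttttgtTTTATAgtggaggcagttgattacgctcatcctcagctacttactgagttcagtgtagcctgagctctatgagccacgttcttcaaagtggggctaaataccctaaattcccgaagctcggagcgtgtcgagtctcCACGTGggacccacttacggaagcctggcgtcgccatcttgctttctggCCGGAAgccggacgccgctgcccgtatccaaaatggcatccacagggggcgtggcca
Gtf3c1: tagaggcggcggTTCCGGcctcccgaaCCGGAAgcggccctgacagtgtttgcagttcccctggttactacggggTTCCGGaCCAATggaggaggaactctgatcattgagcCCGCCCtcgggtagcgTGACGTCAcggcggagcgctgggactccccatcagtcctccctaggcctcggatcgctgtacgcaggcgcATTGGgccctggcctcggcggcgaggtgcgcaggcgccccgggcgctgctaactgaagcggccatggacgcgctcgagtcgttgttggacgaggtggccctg
Polr2c: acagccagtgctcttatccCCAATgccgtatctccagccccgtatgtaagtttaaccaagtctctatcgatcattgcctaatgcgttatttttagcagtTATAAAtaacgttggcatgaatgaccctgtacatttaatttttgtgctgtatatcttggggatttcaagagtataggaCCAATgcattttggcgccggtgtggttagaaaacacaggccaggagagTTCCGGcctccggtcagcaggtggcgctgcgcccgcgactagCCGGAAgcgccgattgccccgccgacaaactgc
Polr1a: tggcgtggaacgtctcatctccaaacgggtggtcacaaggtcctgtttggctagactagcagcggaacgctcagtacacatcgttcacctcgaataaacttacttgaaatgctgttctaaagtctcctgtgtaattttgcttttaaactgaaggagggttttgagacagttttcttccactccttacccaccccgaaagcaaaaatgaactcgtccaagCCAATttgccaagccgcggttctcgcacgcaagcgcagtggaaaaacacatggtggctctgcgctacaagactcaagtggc
The motifs were the TATA box (TATAAA), the GC box (GGGCGG), the E-box (CACGTG), the CCAAT box (CCAAT), the Ets core (CCGGAA) and the cyclic AMP response element (TGACGTCA). In Taf7l a TATA-box match on each strand overlaps in one stretch, 150 and 148 bases before the start, and an E-box lies 49 bases before it. Gtf3c6 has an Ets core 7 bases and an E-box 56 bases before the start. Gtf3c1 has 3 Ets cores and the only cyclic AMP response element of these 5 windows, 122 bases before the start. Polr2c has Ets cores on both sides of its start, and Polr1a matched only a CCAAT box, 31 bases before its start. Of the 104 genes, 90 had a window in the table. Where a gene had several windows, the one nearest its annotated start was taken for members and the first listed for other genes. The set of all windows also holds genes that were not tested here. A GC box was in 65.6% of these 90, against 35.9% of all 27025 windows of the table. An Ets core was in 45 of the 90, against 15.2% of all windows, and an E-box in 18 of the 90, against 7.24%. The CCAAT box was in 32.2%, against 37.9% of all windows, and the TATA box in 12.2%, against 14.2%. The cyclic AMP response element was in 3.33%, against 1.87%. Base composition differed as well, with a median GC content of 59.3% in the 90 windows and 52.7% in all windows.

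In KO cells 11 of the transcription machinery genes rose, 4 fell and 88 did not pass the test. The changes were small. Apart from Taf7l, at 2.24-fold, the genes that changed lay between -0.59 and 0.63 on the log2 scale. The call used edgeR's quasi-likelihood test with a Benjamini-Hochberg adjusted p under 0.05 over all 11594 genes tested. The share called was 14.6% of the 103 members tested, against 17.3% of all genes tested. Members rose in 10.7% of cases, against 8.13% of all genes, and fell in 3.88%, against 9.13% of all genes. The median log2 fold change was 0.05 over the members and 0.0087 over all genes tested. Without KO library 04 the median log2 fold change of the members was 0.018. The median size of the change was 0.12 for members and 0.17 for all genes. Members were also counted more deeply, with a median level of 43.5 CPM, against 28.4 CPM over all genes tested. The part of this level in the smaller size of the changes was not tested. In 29 members (28.2%) the KO and WT libraries did not overlap, against 31.6% of all genes tested. In 17 members every KO library was above every WT library (15.6% of all genes), and in 12 every KO library was below (16.0% of all genes). Bulk RNA cannot tell fewer cells of a type from less RNA per cell.

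**Figure D1:**
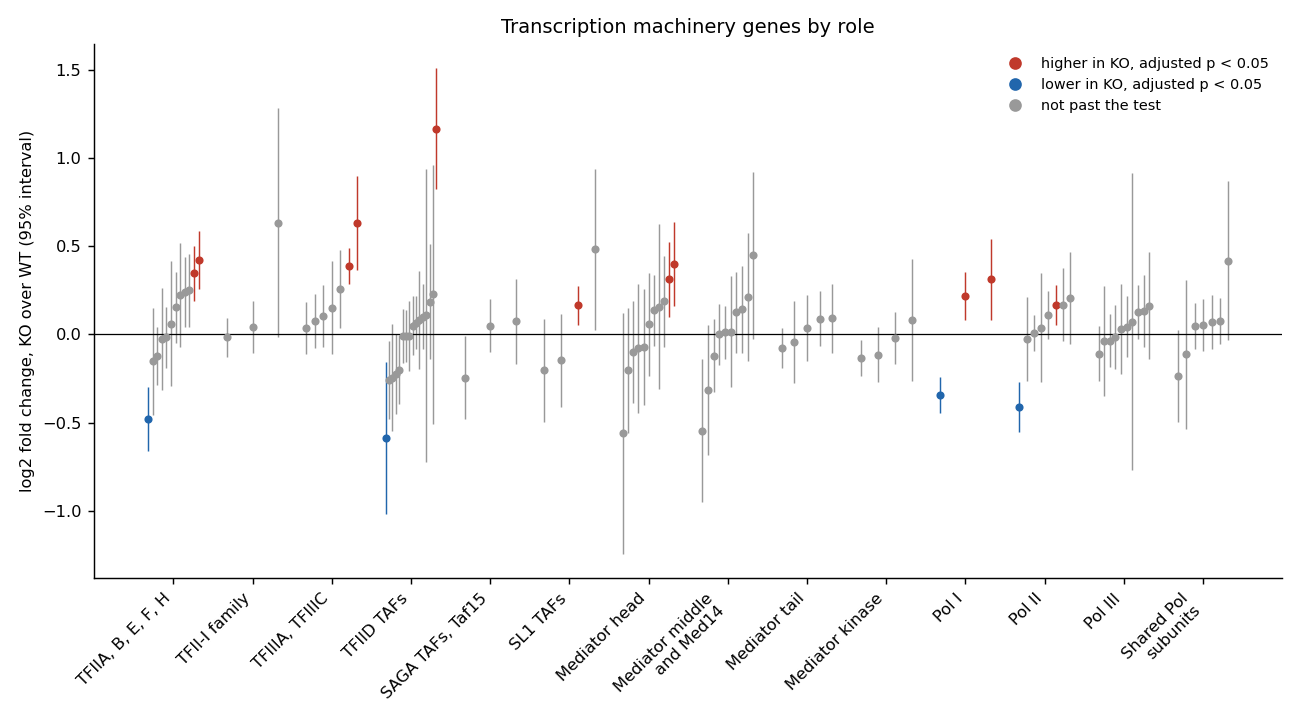
Log2 fold change, KO over WT, of the 103 members tested, grouped by role, with 95% intervals. Red points rose, blue points fell and grey points did not pass the test (adjusted p of 0.05). Taf7l, at 1.17 among the TFIID TAFs, stands above all other members, and both Pol I subunits that rose are set beside one that fell.

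The count of genes that rose varied between the alternatives. Without KO library 04 it was 7, without WT library 01 it was 6, and without WT library 03 it was 7. Calls over all genes, 2002 in the main fit, fell as well, to 1583, 1566 and 1694 in turn. With no filter on low counts, edgeR called 8 members higher, beside 1849 calls over all genes. DESeq2's Wald test was fitted to all 17987 genes with a count and left with its own default filter on mean count. It called 5 members higher, beside 1134 calls over all genes. Taking out the median of each chromosome left 7, beside 1678 calls over all genes. Of the 15 genes that changed, 7 kept their call in each of 15 alternatives, namely Taf7l, Gtf3c6, Gtf3c1, Gtf2f1, Gtf2e1, Gtf2e2 and Polr2c. No called member changed direction in any of them. The authors' deposited table gives 11 members an FDR under 0.05, 8 higher and 3 lower in KO, and all 11 were called here with the same sign.

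**Figure D2:**
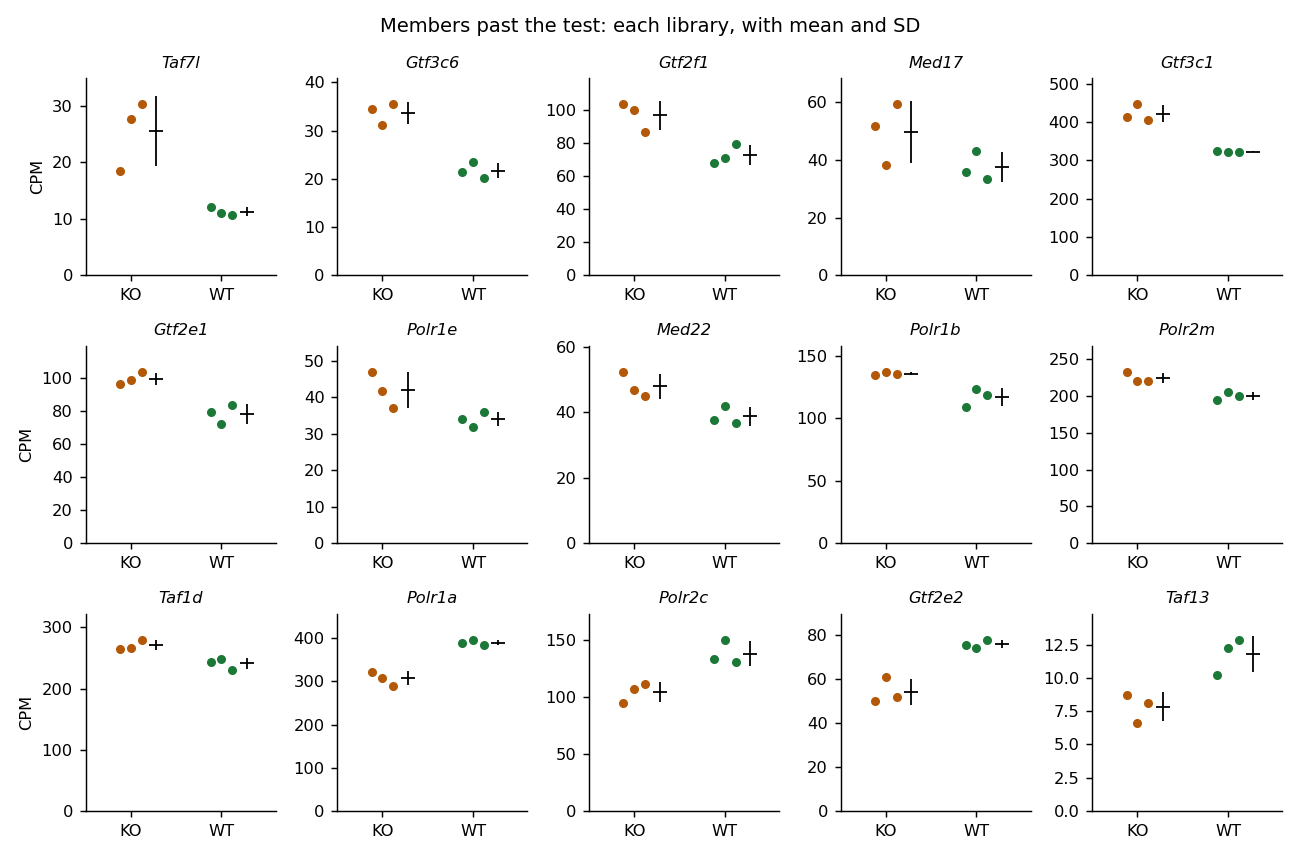
CPM of the 15 genes that passed the test in each library, KO left of WT in every panel, on axes that start at 0. Bars beside the points give the mean and SD of 3 libraries. The groups are apart in 14 panels and overlap for Med17.

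The general factors of Pol II included both directions. Of the 12 tested genes of TFIIA, TFIIB, TFIIE, TFIIF and TFIIH, 2 rose and 1 fell, with a median log2 fold change of 0.11. Over all genes tested 8.13% rose and 9.13% fell, shares that stand beside the count of each group below. Both subunits of TFIIE, the factor that brings TFIIH to the promoter, changed, and they changed in opposite directions. Gtf2e1, the large subunit, had 96.3, 98.7 and 104 CPM in KO, against 79.4, 71.9 and 83.5 CPM in WT. Each KO library was above each WT library, and the log2 fold change was 0.35 ± 0.078 (SE, adjusted p = 0.00054). Gtf2e2, the small subunit, had 50.02, 60.9 and 51.6 CPM in KO, against 75.4, 74.2 and 77.8 CPM in WT. Here each KO library was below each WT library, with a log2 fold change of -0.48 ± 0.090 (adjusted p = 2.83e-05). The number of Gtf2e1 counts per Gtf2e2 count was 1.93, 1.62 and 2.01 in KO libraries and 1.05, 0.97 and 1.07 in WT libraries. That pair was picked after its values were seen, so the ratio is given without a test. Gtf2e2 lies on chromosome 8, where other genes were lower in KO as well, as described below.

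Of TFIIF, which escorts Pol II to the promoter, 1 of 2 genes rose. Its large subunit Gtf2f1 had 104, 100.2 and 86.8 CPM in KO, against 67.9, 70.8 and 79.4 CPM in WT, with no overlap, and rose by 0.42 ± 0.082 on the log2 scale (adjusted p = 5.24e-05). The small subunit Gtf2f2 had 46.9, 51.1 and 52 CPM in KO, against 42.1, 44.01 and 39.8 CPM in WT, also without overlap, but its log2 fold change of 0.25 ± 0.10 did not pass (adjusted p = 0.0868). None of the 5 tested TFIIH genes, which encode core subunits of the helicase and repair complex, passed the test. They ran from -0.027 ± 0.14 for Gtf2h5 to 0.24 ± 0.10 for Gtf2h3 (adjusted p = 0.933 and 0.0823). Gtf2b, which sets the position of Pol II at the start site, had 11.9, 18.03 and 18.1 CPM in KO, against 12.1, 18.3 and 15.5 CPM in WT, and the groups overlapped (95% interval of the log2 fold change -0.29 to 0.42). The TFIIA genes Gtf2a1 and Gtf2a2 lay at -0.12 ± 0.083 and -0.15 ± 0.15 and did not pass. Gtf2a1l, a TFIIA gene known from the testis, was the only member too low to test, with 8, 8 and 3 counts in KO and 5, 5 and 3 counts in WT.

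The TFII-I family, signal-responsive DNA-binding proteins that share the Gtf2 name, did not pass the test. Gtf2i had 235, 242 and 245 CPM in KO, against 238, 253 and 238 CPM in WT, and its interval of -0.13 to 0.095 left little room for a change. Gtf2ird2 had 5.06, 4.74 and 5.88 CPM in KO, against 2.93, 3.80 and 3.34 CPM in WT. All KO libraries of Gtf2ird2 were above all WT libraries, but at this low level the log2 fold change of 0.63 ± 0.33 did not pass (adjusted p = 0.185). Gtf2i and Gtf2ird2 are related in sequence, so reads could be shared between them.

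TFIIIC, the factor that recognizes the internal promoters of transfer RNA genes, was on the positive side in all 6 of its genes, of which 2 rose and 4 did not pass. Their median log2 fold change was 0.20. Of all 103 members tested 64 were on the positive side, and 8.13% of all genes tested rose. Gtf3c1, the largest subunit, which contacts the B box, had 413, 447 and 405 CPM in KO, against 324, 321 and 323 CPM in WT. The WT libraries were nearly equal, every KO library was higher, and the log2 fold change was 0.39 ± 0.051 (adjusted p = 4.23e-09). Gtf3c6, a small subunit, had 34.4, 31.1 and 35.5 CPM in KO, against 21.4, 23.5 and 20.3 CPM in WT. Among the called members its rise was the largest after that of Taf7l, 0.63 ± 0.13 on the log2 scale (adjusted p = 0.000201), again with no overlap. Gtf3c2 had 44.8, 41.2 and 42.96 CPM in KO, against 36.2, 35.1 and 36.5 CPM in WT, and lay at 0.26 ± 0.11 (adjusted p = 0.101). Although its groups did not overlap, 38.9% of its exon bases are also annotated to Gm29609 on the same strand. Gtf3c3, Gtf3c4 and Gtf3c5 lay at 0.10 ± 0.088, 0.075 ± 0.076 and 0.15 ± 0.13 and did not pass. Gtf3a encodes TFIIIA, the factor for 5S ribosomal RNA genes, and had 105, 110.3 and 98.1 CPM in KO, against 111, 96.1 and 97.6 CPM in WT. Its groups overlapped (interval -0.11 to 0.19), and 59.1% of its exon bases lie antisense to exons of Mtif3.

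TFIID TAFs, which bind core promoter DNA and modified histones, were split around 0, with 8 of 16 on the positive side. Of these 16, 1 rose, 1 fell and 14 did not pass, with a median of 0.020 on the log2 scale. Taf7l, the X-linked paralog of Taf7 known from testis and fat cells, had 18.5, 27.7 and 30.3 CPM in KO, against 12.1, 10.9 and 10.7 CPM in WT. All 3 KO libraries were above all WT libraries, but they spread more, with library 04 lowest. The means were 25.5 ± 6.21 CPM in KO and 11.3 ± 0.763 CPM in WT (SD, n = 3 each), a log2 fold change of 1.17 ± 0.17 (adjusted p = 1.22e-07). No exon base of Taf7l is shared with another gene. Taf13, a small histone-fold subunit that pairs with Taf11, had 8.76, 6.64 and 8.14 CPM in KO, against 10.3, 12.3 and 12.9 CPM in WT. The groups were apart, and the log2 fold change was -0.59 ± 0.22 (adjusted p = 0.0469). That call was marginal, since without KO libraries 04, 05 or 06 in turn the adjusted p was 0.0518, 0.185 and 0.0801, without WT library 02 or 03 it was 0.118 and 0.151, and by DESeq2 it was 0.196. It was also lost with upper-quartile factors (0.0530), library size alone (0.0537) and no filter on low counts (0.0657).

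Other TFIID subunits gave no call. Taf1, the largest subunit and scaffold, had 98.5, 88.1 and 93.6 CPM in KO, against 86.9, 101 and 93.99 CPM in WT (interval -0.16 to 0.14). Taf4, a scaffold of the core, had 106, 95.7 and 119 CPM in KO, against 98.9, 104 and 101 CPM in WT, and its paralog Taf4b, known from ovary and testis, had 51.96, 47.4 and 46.8 CPM in KO, against 60.3, 54.96 and 52.5 CPM in WT. The groups overlapped for Taf4, while the highest KO value of Taf4b lay just below its lowest WT value. Taf4b lay at -0.20 ± 0.10 (adjusted p = 0.160). Taf7 had 16.2, 17.3 and 22.8 CPM in KO, against 16.3, 16.5 and 16.2 CPM in WT, and lay at 0.19 ± 0.16 (adjusted p = 0.490). Taf9 and Taf9b are paralogs shared with the SAGA complex. Taf9 had 3.70, 2.85 and 4.52 CPM in KO, against 2.93, 4.47 and 1.91 CPM in WT, and Taf9b had 2.14, 2.47 and 3.17 CPM in KO, against 1.89, 2.90 and 2.39 CPM in WT. Both overlapped, and at these low levels their intervals were wide (-0.51 to 0.96 and -0.72 to 0.94). Ak6, which shares 73.8% of the exon bases of Taf9, had a log2 fold change of 0.26 ± 0.10. Of the 2 TAFs of SAGA, Taf5l lay at -0.24 ± 0.12 and Taf6l at 0.073 ± 0.12, neither past the test. Taf15, an RNA-binding protein of the FET family, had 106, 90.3 and 103 CPM in KO, against 95.7, 94.9 and 98.8 CPM in WT, and overlapped (adjusted p = 0.731).

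SL1, which brings Pol I to the ribosomal DNA promoter, had 1 of its 4 TAF genes higher. Taf1d had 265, 267 and 279.9 CPM in KO, against 243, 249 and 231 CPM in WT, with no overlap, and rose by 0.16 ± 0.055 on the log2 scale (adjusted p = 0.0259). Its call was lost without KO library 06 (0.123), without WT library 03 (0.152) and in DESeq2 (0.0784). Of the exon bases of Taf1d 13.6% are also annotated to other genes, namely 4931406C07Rik antisense and Gm25791 and Gm22620 on the same strand. Taf1a had 11.1, 11.01 and 9.04 CPM in KO, against 6.07, 6.48 and 10.02 CPM in WT, and lay at 0.48 ± 0.23 (adjusted p = 0.141), and passed without WT library 03 (0.0460). Taf1b lay at -0.20 ± 0.15 (adjusted p = 0.379) and Taf1c at -0.15 ± 0.13 (adjusted p = 0.501).

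Of 30 Mediator genes, 2 rose, 0 fell and 28 did not pass, against 8.13% higher and 9.13% lower among all genes tested, with a median of 0.013 on the log2 scale. Both genes that rose encode head subunits, which contact the polymerase. Med17, the scaffold of the head, had 51.6, 38.1 and 59.2 CPM in KO, against 35.8, 43.1 and 33.2 CPM in WT. KO library 05 fell within the WT range, so Med17 was the one called gene whose groups overlapped. Its log2 fold change was 0.40 ± 0.12 (adjusted p = 0.0112). The call was lost without KO library 04 or 06 (0.0736 and 0.190), without WT library 01 or 03 (0.0599 and 0.0715) and in DESeq2 (0.104). Med22 had 52.4, 46.7 and 44.99 CPM in KO, against 37.5, 42 and 36.7 CPM in WT, with the groups apart, and a log2 fold change of 0.31 ± 0.11 (adjusted p = 0.0342). Its call was lost without KO library 04 or 05 (0.200 and 0.0512), without WT library 01 or 03 (0.103 and 0.124), in DESeq2 (0.164) and with no filter on low counts (0.0501).

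The other Mediator modules had no call. Among the 9 middle genes, Med1, the subunit that binds nuclear receptors, had 99.4, 103 and 95.6 CPM in KO, against 91.96, 108 and 96.4 CPM in WT, and its groups overlapped (interval -0.14 to 0.16). Med21 had 9.15, 9.68 and 7.46 CPM in KO, against 13.2, 11.8 and 13.6 CPM in WT, apart between groups, and lay at -0.55 ± 0.20 with an adjusted p of 0.0523, just short of the threshold. Med31 lay at 0.45 ± 0.24 (adjusted p = 0.197). Med20, a head subunit, lay lowest of Mediator at -0.56 ± 0.34, with 2.53, 2.66 and 4.97 CPM in KO, against 5.45, 3.13 and 6.20 CPM in WT (adjusted p = 0.279). Med14, the backbone that joins the modules, had 74.9, 63.96 and 70.3 CPM in KO, against 64.9, 75.3 and 68.9 CPM in WT, and its log2 fold change of 0.00039 ± 0.088 was the one nearest to 0 among the members. In the tail, where activators bind, the 5 genes ran from -0.077 ± 0.056 for Med25 to 0.090 ± 0.10 for Med15.

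The kinase module, which docks Cdk8 or Cdk19 on Mediator, likewise gave no call in 4 genes. Med12, which activates the kinase, had 99.8, 95.5 and 95.4 CPM in KO, against 106, 92.5 and 96.6 CPM in WT, and its paralog Med12l had 17.3, 14.4 and 14.7 CPM in KO, against 14.03, 14.97 and 15.03 CPM in WT. Med13, which links the module to the core, had 87.2, 80.5 and 85.7 CPM in KO, against 97.2, 92.7 and 83.7 CPM in WT. Med13l, its paralog, had 456, 421 and 417 CPM in KO, against 496, 486 and 437 CPM in WT. The groups of Med13l overlapped, since KO library 04 lay above WT library 03. It lay at -0.13 ± 0.050, and its adjusted p of 0.0529 lay just outside the threshold. It passed without KO library 04 (0.0208), without WT library 03 (0.0119), with median-of-ratios size factors (0.0488) and with chromosome medians taken out (0.0126).

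Of the 5 Polr1 genes, the 3 that are specific to Pol I changed, 2 rising and 1 falling. Polr1a, the largest and catalytic subunit, had 323, 309 and 289.9 CPM in KO, against 389, 397 and 385 CPM in WT. Each KO library was below each WT library, the means were 307 ± 16.5 CPM in KO and 390.0 ± 6.06 CPM in WT (SD, n = 3 each), and the log2 fold change was -0.34 ± 0.051 (adjusted p = 1.74e-07). Polr1a lies on chromosome 6, where the median of non-member genes was -0.25, and with that median taken out it lay at -0.10 and did not pass (adjusted p = 0.218). Polr1b, which forms the active centre together with Polr1a, had 134, 137 and 135 CPM in KO, against 109, 123.3 and 118 CPM in WT, and rose by 0.22 ± 0.068 (adjusted p = 0.0167). Polr1e, a Pol I subunit that works in initiation, had 46.9, 41.8 and 37.1 CPM in KO, against 33.9, 31.9 and 35.8 CPM in WT, and rose by 0.31 ± 0.12, with an adjusted p of 0.04999, just under the threshold. For every 1 count of Polr1a there were 0.442 ± 0.0253 counts of Polr1b in KO and 0.300 ± 0.0170 in WT (SD, n = 3 each, a pair picked after its values were seen). The call of Polr1b was lost without KO library 05 (0.0585), without WT library 01 (0.125) and in DESeq2 (0.0883). That of Polr1e was lost without KO library 04 or 05 (0.297 and 0.0954), without WT library 01, 02 or 03 (0.0936, 0.173 and 0.0572) and in DESeq2 (0.211). Median-of-ratios factors, no filter on low counts, a filter at 1 CPM and a non-robust fit also ended it (0.0521, 0.0740, 0.0567 and 0.0518). Polr1c and Polr1d, shared by Pol I and Pol III, lay at 0.071 ± 0.078 and 0.077 ± 0.066 and did not pass.

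Of the 8 genes specific to Pol II, 1 rose and 1 fell. Polr2c, a subunit around which the enzyme is assembled, had 94.4, 107 and 111 CPM in KO, against 134, 150.1 and 130.3 CPM in WT. Its KO libraries were all below its WT libraries, and the log2 fold change was -0.41 ± 0.071 (adjusted p = 5.66e-06). Polr2c lies on chromosome 8, where the median of non-member genes was -0.21, and with that median taken out it lay at -0.20 (adjusted p = 0.0425). Exons of Dok4 lie antisense to 18.1% of the exon bases of Polr2c. Polr2m, which binds Pol II and makes it depend on Mediator, had 233, 221 and 221 CPM in KO, against 195, 206 and 200.4 CPM in WT, and rose by 0.17 ± 0.057 (adjusted p = 0.0303). This small difference was lost without KO library 04 (0.143), without WT library 01 or 03 (0.115 and 0.0758), in DESeq2 (0.0979) and with no filter on low counts (0.05005). Polr2a, the largest and catalytic subunit, had 497, 426 and 439 CPM in KO, against 443, 462 and 450.2 CPM in WT, with overlapping groups and an interval of -0.093 to 0.11. Polr2b, its partner in the active centre, had 137, 132 and 142 CPM in KO, against 133, 133 and 114 CPM in WT, and lay at 0.11 ± 0.068 (adjusted p = 0.280). Polr2j, highest of the Pol II genes, lay at 0.21 ± 0.13 (adjusted p = 0.296). Of the 5 subunits shared by all 3 polymerases none passed, from -0.24 ± 0.13 for Polr2h to 0.42 ± 0.23 for Polr2l.

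Pol III gave no call in 10 genes, which ran from -0.11 ± 0.078 for Polr3b to 0.16 ± 0.15 for Polr3k, with a median of 0.037. Polr3a, the catalytic subunit, had 75.3, 74.8 and 67.8 CPM in KO, against 69.8, 76.4 and 65.4 CPM in WT (interval -0.13 to 0.22). Polr3g and Polr3gl are alternatives for one position in the enzyme, the first known from ESCs and the second from differentiated cells. Polr3g had 91.7, 99.4 and 107 CPM in KO, against 99.9, 106 and 99.2 CPM in WT. Polr3gl had 2.92, 1.90 and 2.71 CPM in KO, against 3.14, 1.79 and 2.15 CPM in WT, so Polr3g predominated in both groups. The ratio of their counts was 41.1 ± 10.6 in KO and 45.8 ± 13.7 in WT (SD, n = 3 each), without correction for length.

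**Figure D3:**
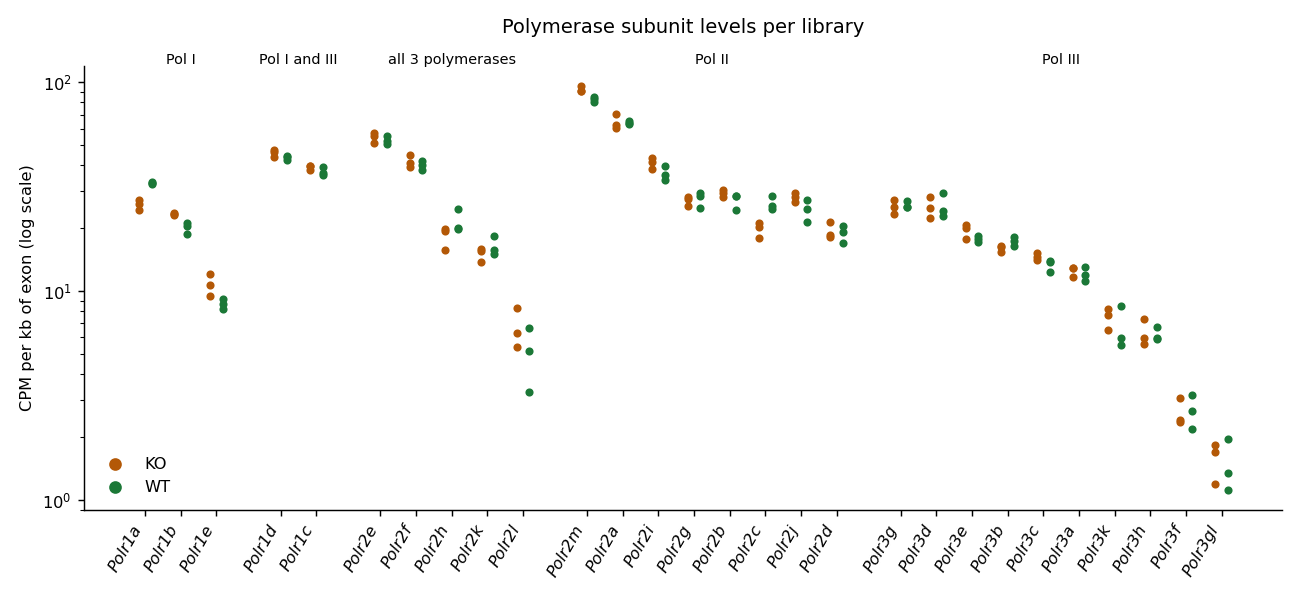
Level of each polymerase subunit gene per kilobase of exon (log axis) in every library, KO left of WT, grouped by the polymerase that uses it. Polr2m and Polr2a stand highest and Polr3gl lowest, and the groups stand visibly apart for Polr1a and Polr2c.

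Per kilobase of exon, Polr2m had the highest level of the members, 92.8 ± 2.82 in KO and 82.6 ± 2.30 in WT CPM per kb, followed by Polr2a with 64.3 ± 5.40 in KO and 63.95 ± 1.35 in WT (SD, n = 3 each). Polr2a did not differ between groups beyond its spread, and in both groups it lay below Polr2m by more than that spread. The catalytic subunits differed in level, with Polr1a at 25.9 ± 1.39 in KO and 32.9 ± 0.510 in WT and Polr3a at 12.5 ± 0.716 in KO and 12.1 ± 0.954 in WT CPM per kb. Polr3g, at 25.3 ± 1.97 in KO and 25.8 ± 0.930 in WT, stood far above Polr3gl, at 1.57 ± 0.338 in KO and 1.48 ± 0.439 in WT. Taf7l reached 11.4 ± 2.76 in KO and 5.02 ± 0.340 in WT, while Taf7 had 5.68 ± 1.08 in KO and 4.96 ± 0.0473 in WT CPM per kb. Taf7l stood above Taf7 in KO, and in WT these paralogs did not differ beyond their spread.

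A ratio within a library is free of scaling, and 7 pairs of alternative subunits had at least 10 counts in every library. The exact two-sided permutation test cannot go below p = 0.1 with 3 libraries a group. For Taf7 over Taf7l the ratio of counts was 0.874, 0.623 and 0.754 in KO and 1.34, 1.51 and 1.51 in WT. Thus, without correction for length, Taf7l counts exceeded Taf7 counts in each KO library and were fewer in each WT library. The difference was -0.97 on the log2 scale (exact p = 0.1, Benjamini-Hochberg adjusted p = 0.35 over 7 pairs). Taf4 over Taf4b was 2.03, 2.02 and 2.54 in KO and 1.64, 1.90 and 1.93 in WT, a difference of 0.26 (exact p = 0.1, adjusted p = 0.35). The other 5 pairs overlapped. Among them Cdk8 over Cdk19 differed by 0.41 (exact p = 0.2), Med12 over Med12l by -0.091 (exact p = 0.6) and Med13 over Med13l by 0.023 (exact p = 0.8). Taf5 over Taf5l and Taf6 over Taf6l differed by -0.013 and 0.024 (exact p = 1 and 0.9).

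**Figure D4:**
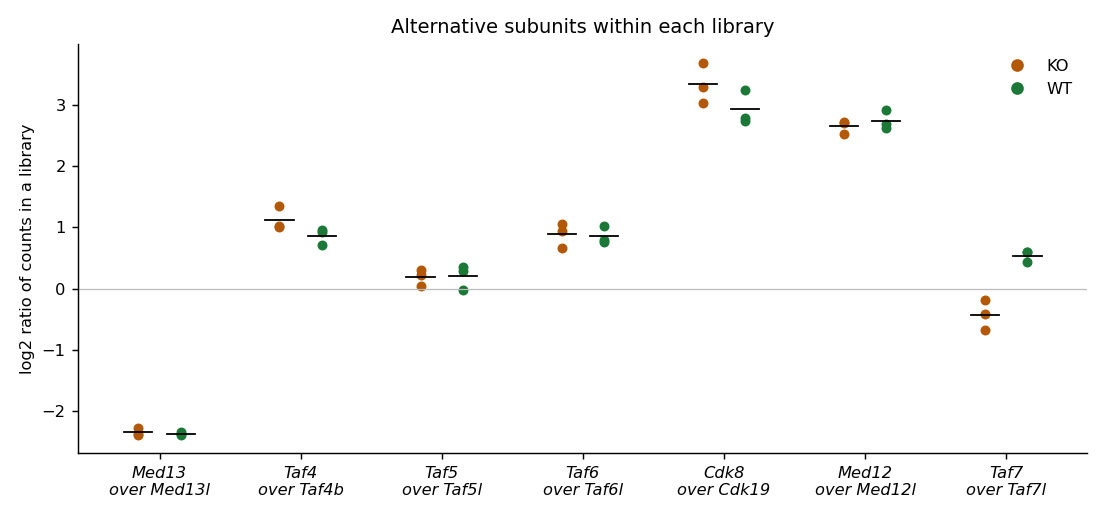
Log2 ratio of the counts of 2 alternative subunits within each library, without correction for length, KO left of WT, with the mean of 3 libraries as a line. The ratio of Taf7 to Taf7l lies below 0 in KO and above 0 in WT, Taf4 over Taf4b is apart with KO higher, and the other 5 pairs overlap.

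Most genes that fell lay on 2 chromosomes. Chromosomes 6 and 8 hold 7 tested members, namely Polr1a and Med21 on chromosome 6 and Gtf2e2, Polr2c, Taf5l, Taf1c and Med26 on chromosome 8. All 7 had a negative log2 fold change, and 3 of the 4 members that fell are among them. Genes that are not members had a median of -0.25 on chromosome 6 (535 genes) and -0.21 on chromosome 8 (642 genes), and 412 of these 1177 genes fell, against 6.23% of the non-member genes elsewhere. With the median of each chromosome taken out, the call of Polr1a was lost, as given above. Gtf2e2 then lay at -0.27 (adjusted p = 0.0288), and it and Polr2c still passed. On the other chromosomes 96 members were tested, of which 11 rose and 1, Taf13, fell. The same step ended the calls of Med22 (0.0935), Polr1b (0.0878), Polr2m (0.0744) and Taf1d (0.0673). Chromosome 9 held 3 of the 11 genes that rose among its 4 tested members, beside 58 higher of its 641 tested non-member genes. Of the 3, Med17 and Taf1d lie 26282 bases apart. The part of the chromosome-wide shifts in each member's change was not tested beyond these values.

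**Figure D5:**
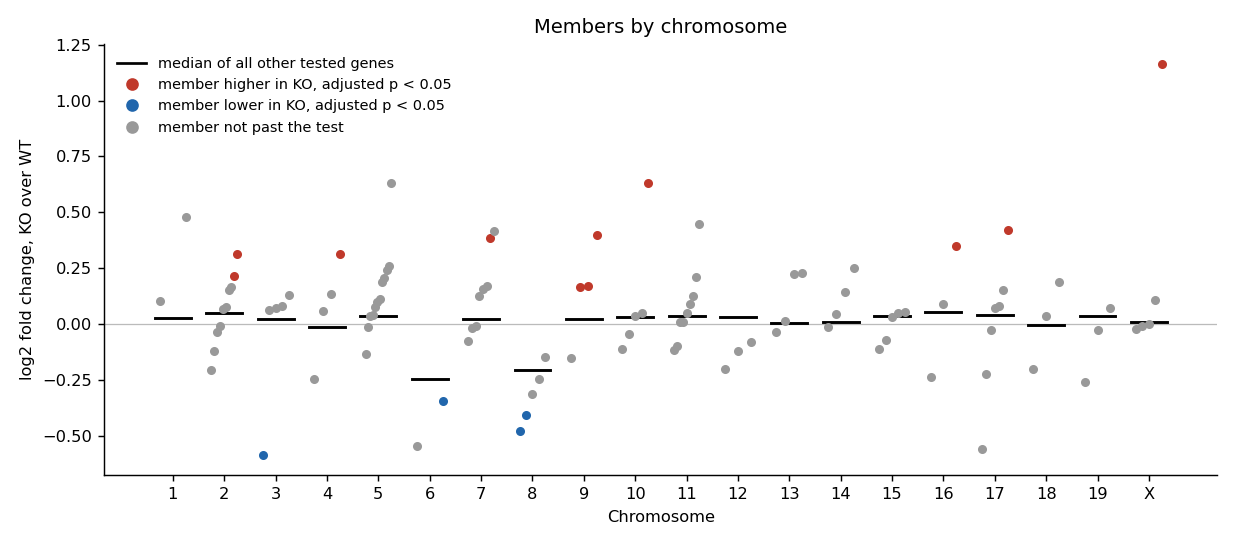
Log2 fold change, KO over WT, of the members on each chromosome, with a black line at the median of all other tested genes there. Chromosomes 6 and 8 are the 2 with a clearly lowered line, at -0.25 and -0.21, and every member on them lies below 0.

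For the 88 members that did not pass, the 95% interval bounds what could have been missed. In 71 of them it lay within 0.5 on the log2 scale either way. The other 17 could hold a larger change, and they include Taf9, Taf9b, Med20, Med29 and Polr3gl.

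Partners of these complexes that the name rule leaves out were read from fixed lists. For comparison, 8.13% of all genes tested rose and 9.13% fell. TBP itself, the subunit common to TFIID, SL1 and TFIIIB, had 25.9, 22.6 and 23.7 CPM in KO, against 28.7, 22.8 and 25.8 CPM in WT, and its groups overlapped (adjusted p = 0.696). Of 13 tested genes of TBP relatives, Brf factors and the SNAPc complex, 0 rose and 2 fell. Snapc3, of the factor for small nuclear RNA genes, lay at -0.56 ± 0.12 (adjusted p = 0.000164). Brf2, a TFIIIB subunit on chromosome 8, lay at -0.47 ± 0.13 (adjusted p = 0.00822) and was lost in DESeq2 (0.0536) and with chromosome medians taken out (0.201). None of the 5 TFIIH partners, which include the kinase Cdk7, and none of the 3 Mediator kinase partners passed.

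Of 9 further Pol I and Pol III genes, 2 rose and 0 fell. Cd3eap, the Pol I subunit that pairs with Polr1e, had 35.4, 32.6 and 36.6 CPM in KO, against 22.8, 26.1 and 27.2 CPM in WT, and rose by 0.46 ± 0.13 (adjusted p = 0.00599). It missed the threshold without WT library 01 (0.0517) and in DESeq2 (0.0506). Rrn3, which makes Pol I competent to initiate, had 292, 277 and 282 CPM in KO, against 251, 255 and 229 CPM in WT, and rose by 0.21 ± 0.055 (adjusted p = 0.00330), and was lost without WT library 03 (0.0634). Twistnb, Znrd1, Ubtf and Ttf1, also of Pol I transcription, did not pass.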

How the data were processed

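The deposited table holds raw read counts per gene, 1 column per library, as the values show. Libraries were rRNA-depleted and directional with paired reads of 36 bases, per the labels' protocols. The submitters' processing notes list mm10 as the build and edgeR as a tool. Sources used here name no aligner, counter, strand setting or annotation, so genes that overlap or share sequence are uncertain. FDR-corrected p-values and a signed fold score, negative where KO is lower, come from the authors' own test, per the file headers. Another 18 columns of values per library were not used. Totals were 4234788 to 5206717 counts.

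The 11594 genes that passed filterByExpr were fitted with edgeR 4.0.16 (R 4.3.3, robust quasi-likelihood, TMM factors 0.987 to 1.02, group only), with Benjamini-Hochberg adjustment over these genes. The common biological variation was 5.03%. Fold changes are KO over WT on the log2 scale, ± SE. The fit was checked on simulated counts. Alternatives were other size factors, DESeq2 1.42.0 (on all genes with a count), other filters, a non-robust fit, leaving out each library, leaving out Gm26917 and subtracting chromosome medians. Permutation tests used scipy 1.17.1. Exon lengths, identifiers and overlaps come from GENCODE M21 (104 of 104 members matched, 87 with the same coordinates), and promoter windows from RefSeq. Named genes are all called members, the extremes of each role group, a fixed set of catalytic, scaffold and alternative subunits, Cables2, and called genes of the partner lists. Members and lists were chosen with earlier results of these data known.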

Additional observations from a re-analysis of the deposited data

How the results depend on the processing

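Against 11 members higher and 4 lower, edgeR with no filter on low counts gave 8 higher and 3 lower. DESeq2's Wald test, fitted to 17987 genes and left with its own default filter on mean count, gave 5 higher and 3 lower. It called 1134 genes over all, and test and filter are not separated there. Taking out chromosome medians gave 7 higher. Leaving out 1 library gave 6 to 10 higher and 3 to 4 lower. Calls over all genes, 2002 in the main fit, were 1678 with chromosome medians out and 1566 to 1710 with 1 library out. The median of the members stayed between 0.018 and 0.068 over all alternatives, and between 0.018 and 0.062 with 1 library left out. Upper-quartile factors and library size alone moved the higher share of all calls to 53.2% and 53.4%, from 47.1%, and left 11 members higher. No called member changed sign, and 8 of the 15 lost their call somewhere. For uncalled members the sign was followed only in the named genes, so the sign changes listed next may not be complete. Uncalled members near 0 did change sign with 1 library left out, over these log2 ranges: Gtf2b -0.088 to 0.24, Gtf2h5 -0.13 to 0.14, Gtf2i -0.031 to 0.0097, Gtf3a -0.0069 to 0.11, Gtf3c4 -0.014 to 0.14, Med1 -0.039 to 0.074, Med12 -0.069 to 0.037, Med12l -0.013 to 0.13, Med14 -0.059 to 0.060, Med15 -0.011 to 0.22, Polr2a -0.067 to 0.052, Polr3a -0.0058 to 0.10, Polr3g -0.090 to 0.018, Polr3gl -0.10 to 0.34, Taf1 -0.067 to 0.043, Taf15 -0.0026 to 0.12, Taf4 -0.013 to 0.14, Taf9 -0.011 to 0.57 and Taf9b -0.048 to 0.27. The paralog ratios Med13 over Med13l (-0.012 to 0.041), Taf5 over Taf5l (-0.13 to 0.060) and Taf6 over Taf6l (-0.063 to 0.13) did so too. Sign also turned with upper-quartile factors for Gtf2i (4.0e-05) and Taf1 (0.0049), with library size alone for the same genes (0.0015 and 0.0062), and with chromosome medians out for Med1 (-0.027), Polr2a (-0.031) and Med14 (-0.010). Med14 turned as well with median-of-ratios factors (-0.0015), DESeq2 (-0.0049), no filter (-0.0031) and a 1 CPM filter (-0.0017). The cause was not tested. No paired analysis was possible because the count columns carry library numbers and not the replicate numbers of the labels. Depth limits genes of a few CPM, since 3 counts already equal 0.576 to 0.708 CPM by total counts alone, without TMM factors. In addition, 17 uncalled members could hide a change over 0.5. The count floor covers counting error only, while the intervals rest on the spread between libraries.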

Other observations

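Other parts of the transcription apparatus were read from the same kind of list, beside shares of 8.13% higher and 9.13% lower over all genes tested. Of 6 genes for mitochondrial transcription, 2 rose. Tfb2m, which opens mitochondrial promoters, had 7.01, 9.49 and 10.2 CPM in KO, against 5.03, 5.81 and 4.29 CPM in WT and a log2 fold change of 0.81 ± 0.26 (edgeR adjusted p = 0.0203). Its call was lost without KO library 05 or 06 (0.0778 and 0.0987), without WT library 01 or 03 (0.0525 and 0.0826) and in DESeq2 (0.125). Tefm, the mitochondrial elongation factor, had 13.8, 13.3 and 14.2 CPM in KO, against 7.75, 10.5 and 9.07 CPM in WT and lay at 0.60 ± 0.20 (adjusted p = 0.0265). It was lost without KO library 04 or 06 (0.0655 and 0.0735), without WT library 01 or 03 (0.144 and 0.0630) and in DESeq2 (0.148). The share of mitochondrially encoded transcripts was higher in each KO library as well, and its part here was not tested.

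Of 40 tested genes for pausing and elongation, 1 rose and 1 fell. Cdk9, the kinase that releases paused Pol II, lay at 0.24 ± 0.083 (adjusted p = 0.0337), and its call was lost without any one of KO libraries 04, 05 and 06 (0.0539, 0.112 and 0.0700) or WT libraries 02 and 03 (0.0774 and 0.120). It was also lost in DESeq2 (0.146), with no filter on low counts (0.0541) and with chromosome medians taken out (0.116). Ell2, an elongation factor, lay at -0.28 ± 0.10 (adjusted p = 0.0428), and its call was lost without KO library 04 or 05 (0.0847 and 0.196) and without WT library 01 or 03 (0.129 and 0.138). DESeq2 (0.167), upper-quartile factors (0.0568), library size alone (0.0593) and no filter on low counts (0.0563) also ended it. Of 15 genes for Pol II assembly and its tail phosphatases, 2 rose and 2 fell. Rprd1a and Rprd2, which bind the Pol II tail, lay at 0.39 ± 0.10 and 0.27 ± 0.075 (adjusted p = 0.00174 and 0.00590), and Rprd2 was lost without KO library 04 (0.0900) and in DESeq2 (0.0539). Gpn2, a GTPase for polymerase assembly, and Ctdsp2, a tail phosphatase, lay at -0.39 ± 0.12 and -0.24 ± 0.065 (adjusted p = 0.0189 and 0.00405). Gpn2 was lost without KO library 06 (0.106) or WT library 02 (0.0665) and in DESeq2 (0.0923), and Ctdsp2 without WT library 01 (0.100).

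The SAGA and ATAC coactivators share TAFs with TFIID. Of their 15 tested genes 0 rose and 3 fell. Kat2b, an acetyltransferase, had 53.5, 44.6 and 48.2 CPM in KO, against 65.1, 59.9 and 64.7 CPM in WT and lay at -0.37 ± 0.10 (adjusted p = 0.00257). Supt20 lay at -0.24 ± 0.073 (adjusted p = 0.0152), and was lost without KO library 06 (0.144) or WT library 01 (0.0580) and in DESeq2 (0.0724). Tada3, on chromosome 6, lay at -0.31 ± 0.086 (adjusted p = 0.00642), and was lost without KO library 05 (0.0924) or WT library 01 (0.0546). With chromosome medians taken out it lay at -0.060 (adjusted p = 0.711).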
